A study of Rattus norvegicus with 6 samples.

Results

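Mobp encodes myelin-associated oligodendrocyte basic protein, a small basic protein of the compact myelin that oligodendrocytes wrap around axons of the central nervous system. DNA methylation at CpGs is commonly high within gene bodies and intergenic DNA and low at CpG-rich starts of genes. Oligodendrocytes are rich in iron, and iron deficiency early in life is known to impair myelination. The Mobp locus was taken here as the CpGs on rat chromosome 8 from position 125108537 to 125148625 of build rn4, which is a window from 125128537 to 125128625 and 20 kb on either side. The window was chosen by its measured difference in methylation between these same samples, since it is a differentially methylated region (DMR) that the study displayed as lying in the Mobp gene body. The outer limits of the 20 kb on either side were set by position. By the study's method a DMR ends at its last differing CpG, so the CpGs next to the window were partly set by their own values. No annotation of rn4 was used, so exons, introns and the start of Mobp were not placed on these positions. In the newer rat build GRCr8, the genes that RefSeq lists as protein-coding on either side of Mobp are Rpsa, which encodes a ribosomal protein, and Mrrf-ps2.

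Whole-genome bisulfite sequencing was used, which converts unmethylated cytosines so that they appear as thymine, while methylated ones stay cytosine. Hippocampi of Sprague-Dawley rat pups (CD1 Sprague-Dawley in the study's methods) were taken on postnatal day 15. In the iron-deficient group (n = 3), dams received a diet with 4 ppm iron from gestational day 2 and the control diet from postnatal day 7 onward. In the iron-sufficient group (n = 3), they received 200 ppm iron throughout. No genetic alteration or other agent is given in the labels, and the sources used here do not say whether pups of a group shared a litter, so p-values measure only the spread between these samples. The labelled tissue could not be checked against marker genes, because the files hold methylation and not expression. A hippocampus mixes neurons, oligodendrocytes and other cells, so a change in the share of a cell type and a change of methylation within a cell type cannot be told apart.

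Together the 6 files listed 567 CpGs of the locus out of 22152541 in the genome, with 469 to 558 CpGs per sample. A coverage of at least 10 reads in all 6 samples was reached by 121 CpGs of the locus (21.3%), of which 5 lay in the window, 47 in the flank of lower coordinates and 69 in the flank of higher coordinates. These CpGs are called tested below. The median coverage of the flanking CpGs lay between 30 reads in iron-deficient replicate 3 and 46.5 reads in iron-deficient replicate 2. Coverage overstates the precision of these values. Over the 4686933 tested CpGs of the genome, the variance between replicates of a group was 14.8 times the variance that the read counts alone would give, and it was 16.4 times in the Mobp flanks and 7.69 times in the window. In the flanks, 346 of 696 values (49.7%) were exactly 0% or 100%, compared with 54.7% in the genome. The intervals below cover counting error only.

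The only sequence of Mobp in the reference tables used here is its RefSeq promoter in GRCr8, 250 bases before to 50 bases after an annotated start on the plus strand. It is shown for its CpG content, because bisulfite sequencing reads methylation at those positions, and its CpGs are in capitals.
Mobp promoter: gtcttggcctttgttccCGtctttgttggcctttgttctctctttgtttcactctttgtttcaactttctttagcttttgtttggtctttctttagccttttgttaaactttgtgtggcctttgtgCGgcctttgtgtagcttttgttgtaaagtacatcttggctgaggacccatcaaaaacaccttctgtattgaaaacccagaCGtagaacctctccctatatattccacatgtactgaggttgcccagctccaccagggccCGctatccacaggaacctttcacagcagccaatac
The sequence holds 4 CpGs, at bases 18, 127, 207 and 266 counted from its 5′ end. Of 33469 rat promoters of this length, 37.97% hold 4 CpGs or fewer, the median is 7, and 94.5% hold at least 1. Of 19 other genes of myelin and of the oligodendrocyte lineage, 12 have a promoter in the table. Among these, 3 hold fewer CpGs than Mobp, including Opalin, an oligodendrocyte membrane glycoprotein, with 3. The other 9 hold more, among them Mag, the myelin-associated glycoprotein, with 6, Mbp, the myelin basic protein, with 13, and Cnp, a myelin enzyme, with 24. Because the position of this promoter in rn4 was not determined, none of the methylation values below is assigned to it.

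The window holds 5 tested CpGs within 89 nucleotides. At 4 of them all iron-deficient replicates were below all iron-sufficient replicates, and these 4 also met the study's single-CpG criteria. The remaining CpG, in the middle, had overlapping groups. These values chose the window and are given as a description, without a test. At 125128537, methylation in iron-sufficient replicates 1, 2 and 3 was 100%, 88.9% and 100%, compared with 37.5%, 29.5% and 65.4% in the iron-deficient replicates. At 125128564 it was 66.7%, 88.2% and 83% in the former and 37.5%, 33.3% and 17.2% in the latter. The closest samples of the groups were 23.5 percentage points apart at the first of these CpGs and 29.2 at the second.

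At 125128594, every iron-sufficient replicate was at 100%, whereas the iron-deficient replicates were at 37.5%, 5.95% and 58.8%, and this was the largest weighted difference of the window at -72.8 percentage points. At 125128625 the iron-sufficient replicates had 65.6%, 100% and 100%, against 60%, 10.4% and 18.2% under deficiency. The groups at this last CpG were separated by the gap between 60% in iron-deficient replicate 1 (15 of 25 reads, exact binomial 95% interval 38.7 to 78.9%) and 65.6% in iron-sufficient replicate 1 (21 of 32 reads, 46.8 to 81.4%), and these intervals overlap. Here iron-sufficient replicate 3 was read 11 times.

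The CpG at 125128587 showed another pattern than its neighbour 7 nucleotides away. Methylation there was 100%, 51.6% and 100% in iron sufficiency and 100%, 57.6% and 92.9% in iron deficiency, so that the groups overlapped and the weighted difference was -1.99 percentage points. In 4 of 6 samples the coverage of this CpG and of 125128594 was identical, at 24, 64 and 44 reads in the iron-sufficient replicates and 16 in iron-deficient replicate 1. In that last sample, 6 of 16 reads were methylated at 125128537, at 125128564 and at 125128594, whereas all 16 were methylated at 125128587. Whether the same reads covered these CpGs cannot be seen in values summed per CpG, and CpGs this close were not taken as independent measurements.

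**Figure D1:**
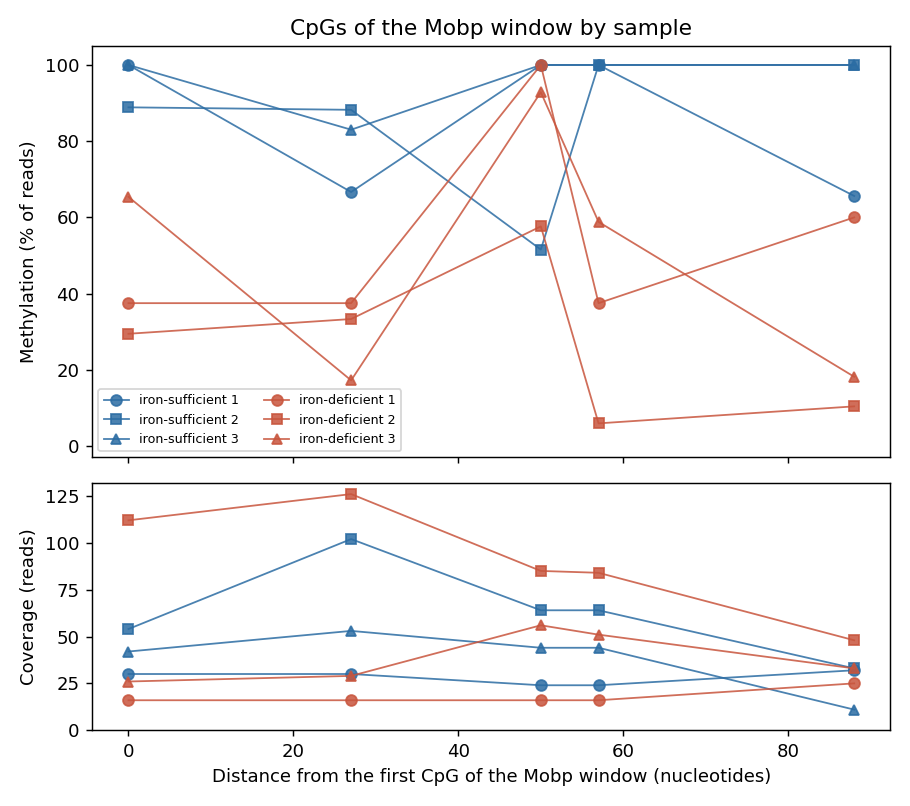
Methylation (upper panel, percent of reads) and coverage (lower panel, reads) at the 5 CpGs of the Mobp window against the distance from its first CpG in nucleotides, with a line per sample. The iron-deficient samples lie below all iron-sufficient samples at 4 CpGs, and the groups overlap at the CpG at 50 nucleotides, where iron-sufficient replicate 2 had 51.6%.

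Summed over the window, the 3 iron-sufficient replicates had 85%, 84.5% and 95.4% methylation and the iron-deficient replicates 55.1%, 29.5% and 56.4%. The groups did not overlap, with iron-deficient replicate 2 lowest by a wide margin. This replicate also had the highest coverage, 91 reads per CpG compared with 17.8 and 39 in iron-deficient replicates 1 and 3 and with 28, 63.4 and 38.8 in the iron-sufficient replicates. The group means differed by -41.3 percentage points, or by -32.6 when iron-deficient replicate 2 was left out. Leaving out any other single replicate gave -46 to -37.8.

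The groups overlapped at the closest CpGs outside the window. Since the study's method ended the window by these values, the contrast with the window is partly built in and is description only. At 125128507 and 125128509, 30 and 28 nucleotides before the first CpG of the window, iron-deficient replicate 1 had no reads, so neither CpG could be tested. At 125128509, iron-sufficient replicates 1, 2 and 3 had 76.2%, 48.1% and 78.6%, and iron-deficient replicates 2 and 3 had 86.4% and 30.4%. At 125128507 the corresponding values were 76.2%, 66.7% and 100%, and 92.1% and 60.9%. Iron-deficient replicate 2, the lowest sample of the window as a whole, was thus the highest of the 5 samples with reads at 125128509 (81 reads). At 125128507 (76 reads) it was exceeded by iron-sufficient replicate 3 alone. Further out it was at 100% at 125128491 (70 reads) and at 0% at 125128460 (32 reads), where no other sample had reads.

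Within 1 kb of the window 20 CpGs were listed and 3 were tested. The tested CpG next below it, at 125128298, had 100%, 87.2% and 93.8% in iron sufficiency and 36.4%, 100% and 100% in iron deficiency, with 11 reads behind the low value. Next above it, at 125129310, the values were 100%, 0% and 97.1% in iron sufficiency and 80%, 100% and 38.8% in iron deficiency. At 125129573 iron-deficient replicate 2 had 18.2% and the other 5 samples 76.2% or more. The groups overlapped at all 3 CpGs. Just beyond 1 kb, 125127134 had 57.9%, 100% and 100% in iron sufficiency and 57.5%, 62.3% and 69.7% in iron deficiency. Its weighted difference was -29.3 percentage points, with overlapping groups. At 125129628 the weighted difference was 13 percentage points, and all iron-deficient replicates were at 100%, as was iron-sufficient replicate 2.

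Methylation outside the window was then compared between the groups by distance, with counts summed per sample and two-sided exact permutation tests over samples. For 3 against 3 the smallest p is 0.1, so these tests cannot reach 0.05, and Benjamini-Hochberg adjustment was over the 6 flanking regions tested by position. Both flanks together, with 116 tested CpGs, were methylated to 73% ± 2.61 (SD, n = 3) under iron sufficiency and to 72.1% ± 3.04 (SD, n = 3) under iron deficiency. This difference, -0.85 percentage points, was smaller than the spread of either group (exact permutation test, p = 0.8, adjusted p = 0.8). It was 1.03 without iron-sufficient replicate 2 and 0.936 without iron-deficient replicate 1.

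From 1 to 5 kb, with 24 CpGs, the iron-sufficient replicates had 61%, 71.3% and 75.3%, against 60.9%, 56.1% and 62.6% with iron deficiency. Iron-sufficient replicate 1 lay within the iron-deficient range, and the difference was -9.38 percentage points (exact permutation test, p = 0.2, adjusted p = 0.4). The 24 CpGs include 125126143 and 125131417, the ends of a wider DMR around the window described below. The 3 tested CpGs within 1 kb lie inside that DMR, so neither region is independent of the choice of the window. From 5 to 20 kb, with 89 CpGs, the replicates had 73%, 77.3% and 70.5% against 71.4%, 76.6% and 79%, a difference of 2.06 percentage points (exact permutation test, p = 0.5, adjusted p = 0.6). Here the groups overlapped widely, and the difference was 0.193 without iron-sufficient replicate 3, 0.626 without iron-deficient replicate 3, 3.82 without iron-sufficient replicate 2, 3.8 without iron-deficient replicate 1 and 8.07 with a coverage minimum of 20. Within 1 kb the 3 CpGs gave 89% ± 10.3 (SD, n = 3) and 76.4% ± 2.76 (SD, n = 3), a difference of -12.6 percentage points (exact permutation test, p = 0.2, adjusted p = 0.4) that turned to 5.32 without iron-sufficient replicate 3 and to 4.63 with a coverage minimum of 5. It was -3.24 without iron-deficient replicate 1 and -5.7 without iron-deficient replicate 2.

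The flanks on either side had differences of opposite sign. The flank of lower coordinates had 71.8%, 73.8% and 76.6% with iron sufficiency and 62.5%, 68.1% and 72.4% with iron deficiency. The highest iron-deficient replicate passed the lowest iron-sufficient replicate, and the difference was -6.39 percentage points (exact permutation test, p = 0.2, adjusted p = 0.4). Without iron-deficient replicate 1 it was -1.46, without iron-sufficient replicate 2 it was -1.66, and with a coverage minimum of 5 it was -2.04. The flank of higher coordinates had 70.7%, 77.9% and 68.6% with iron sufficiency and 74.5%, 75.8% and 77% with iron deficiency. These groups overlapped as well, with a difference of 3.36 percentage points (exact permutation test, p = 0.4, adjusted p = 0.6). This difference was 1.36 without iron-sufficient replicate 3, 2.12 without iron-sufficient replicate 1, 2.21 without iron-deficient replicate 3, 1.3 with no coverage minimum and 10.8 with a minimum of 20. Whether the sides differ from each other was not tested.

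**Figure D2:**
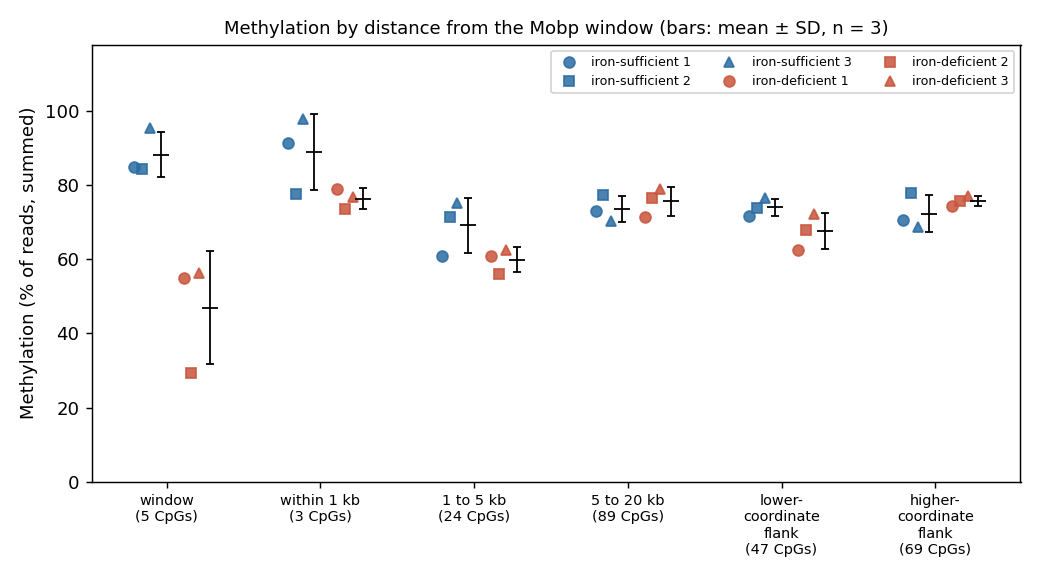
Methylation (percent of reads, summed over the tested CpGs) in each sample for the Mobp window and for its flanks by distance and by side, with the mean and SD of 3 samples per group as black bars. The groups are separate in the window, at 84.5% or more against 56.4% or less, and overlap in every flank. The window and its ends were chosen by these values, so this contrast is partly built in.

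Single CpGs of the flanks were counted by 2 criteria and read against all tested CpGs of the genome. By the single-CpG criteria of the study (means weighted by coverage that are 10 or more percentage points apart, with p no higher than 0.05 from means and variances weighted in the same way), 4 of 116 flanking CpGs were lower in the iron-deficient group, compared with 1.57% of the genome, a share that corresponds to 1.82 of 116. Another 3 were higher, compared with 1.64% of the genome, which corresponds to 1.91. Groups without overlap were found at 5 flanking CpGs with lower and 4 with higher methylation in the iron-deficient group, compared with 2.43% and 2.68% of the genome, or 2.82 and 3.11 of 116. The flanking counts were thus about 1 or 2 CpGs above those shares, and CpGs close to each other can be covered by the same reads. By distance, 2 of 24 CpGs from 1 to 5 kb met the criteria with lower and 0 with higher methylation, and from 5 to 20 kb 2 of 89 were lower and 3 were higher. Of the 24 CpGs, 17 had a negative and 6 a positive weighted difference, and from 5 to 20 kb 41 were negative and 45 positive. These signs were not counted over the genome or tested. Some of the 24 CpGs also lie in the wider DMR around the window described below, so they are not independent of its choice.

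The largest decrease among flanking CpGs without overlap lay 2394 nucleotides below the window, at 125126143. The iron-sufficient replicates had 60%, 95.7% and 91.9%, whereas those with iron deficiency had 0%, 0% and 6.45%, with 23 to 73 reads per sample. The closest samples of the groups were 53.5 percentage points apart, compared with 5.63 to 41.2 at the 4 separated CpGs of the window. Both neighbouring tested CpGs had overlapping groups. At 125126119, 24 nucleotides away, 4 samples were at 0%, with iron-sufficient replicate 3 at 91.9% and iron-deficient replicate 3 at 30.3%. At 125126166, 23 nucleotides to the other side, the values were 11.8%, 97.9% and 8.11% with iron sufficiency and 37%, 0% and 51.7% with iron deficiency.

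The next decreases lay at 125139081 and 125131417. The first had 57.1%, 100% and 76.1% with iron sufficiency against 46.2%, 0% and 22.2% with deficiency, and the second 52.8%, 42.1% and 79.2% against 39.5%, 0% and 33.3%. At both, iron-deficient replicate 2 was at 0% while the closest samples of the groups differed by 11 and 2.63 percentage points. The largest increase, at 125122533, was from 59.5%, 28.3% and 15.4% to 100%, 100% and 78.9%. The increases at 125136133 and 125122872 did not meet the study's single-CpG criteria, although their groups did not overlap. At 125136133 the values went from 10.1%, 0% and 0% to 36.2%, 100% and 13%, and at 125122872 from 67.9%, 0% and 85.7% to 95.9%, 100% and 100%.

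**Figure D3:**
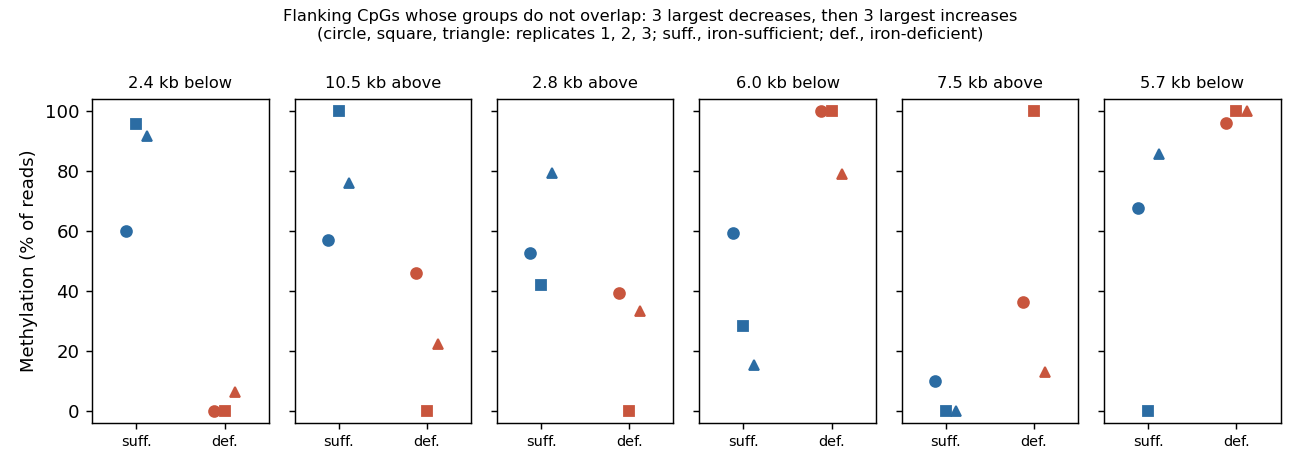
Methylation (percent of reads) of each sample at the 6 flanking CpGs of Mobp with the largest weighted differences among those whose groups do not overlap, titled by their distance below or above the window in kb. At 2.4 kb below, the iron-deficient samples sit between 0% and 6.45% and the iron-sufficient samples at 60% or more, and at the other CpGs the gap between the groups is smaller.

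Most of the locus was methylated. Averaged over the 6 samples, 60 of the 116 flanking CpGs were above 80%, 8 were below 20%, and the median was 81%. Stretches of at least 3 consecutive tested CpGs that were each below 50% in this average were found in 3 places. Together these stretches held 12 CpGs and had 25.9% ± 10.6 (SD, n = 3) with iron sufficiency and 28.1% ± 4.52 (SD, n = 3) with iron deficiency. At 11 of the 12 CpGs both group means were below 50%. The exception, 125126143, had 82.5% with iron sufficiency and 2.15% with iron deficiency and so entered through the iron-deficient group, and the pooled values are therefore given without a test. The difference of 2.19 percentage points was -2.8 without iron-sufficient replicate 1 and -0.313 without iron-deficient replicate 2.

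The longest stretch, from 125135999 to 125136535, held 6 CpGs. Its iron-sufficient replicates had 8.74%, 14.1% and 9.66%. The iron-deficient replicates had 25.3%, 60.4% and 11.9%, so that 2 of 3 were above and replicate 3 was within the iron-sufficient range (exact permutation test, unadjusted p = 0.2). At 125136160 in this stretch, iron-deficient replicate 2 was at 100% with 56 reads, whereas the other 5 samples were between 0% and 4%. The stretch from 125126119 to 125126166 held the 3 CpGs described above. Summed over these, methylation was 22.1%, 53.5% and 64% with iron sufficiency and 15.3%, 0% and 29% with iron deficiency, with an overlap of the groups. This stretch has 3 CpGs only with 125126143 and is given without a test as well. The stretch from 125118103 to 125118215 had 40.3% ± 23.3 (SD, n = 3) with iron sufficiency and 38.5% ± 22.6 (SD, n = 3) with iron deficiency (exact permutation test, unadjusted p = 1).

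**Figure D4:**
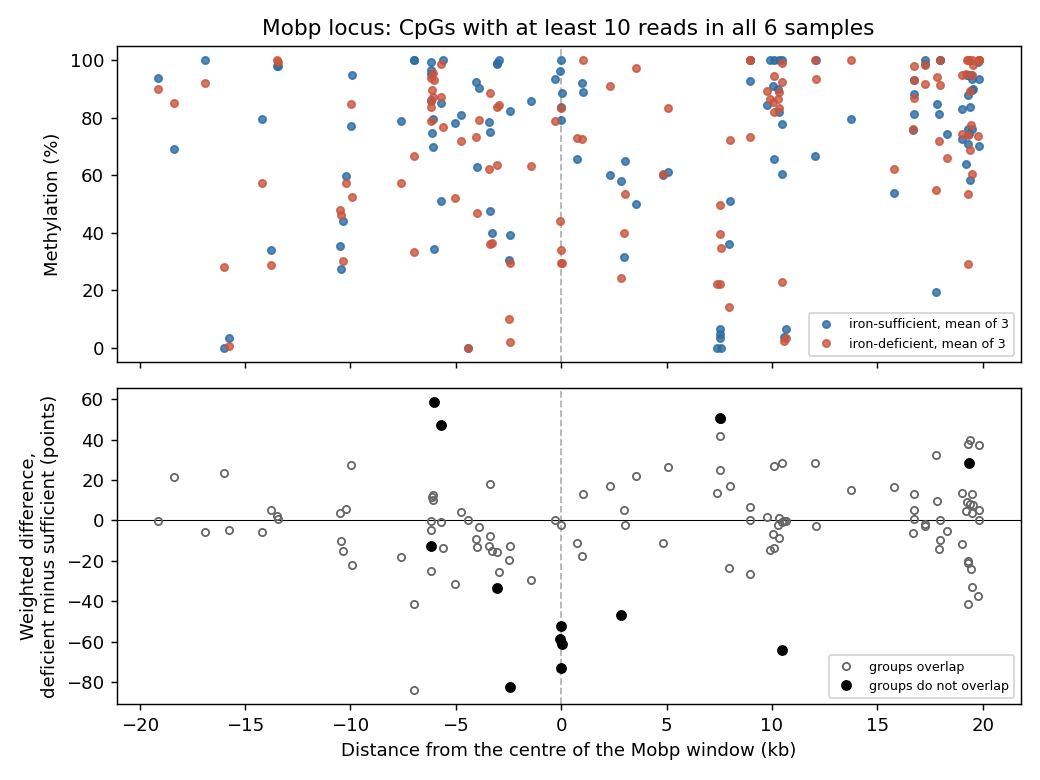
Tested CpGs of the Mobp locus against the distance from the centre of the window in kb (dashed line), with the mean methylation of each group (upper panel, percent) and the coverage-weighted difference, deficient minus sufficient (lower panel, percentage points). CpGs whose groups do not overlap are filled in the lower panel, and 4 of them lie in the window and 9 in the flanks, 5 below and 4 above 0.

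Methylation was also compared in fixed tiles of 1000 nucleotides, which do not depend on the measured values, by edgeR's quasi-likelihood test over the whole genome. Tiles drew on CpGs with any reads in all 6 samples, 358 in the locus, and not only on the tested CpGs. With Benjamini-Hochberg adjustment, 0 of 894922 tiles were called (0% of the genome), and therefore 0 of the 30 tiles of the locus. At an unadjusted p-value under 0.05, 26976 tiles of the genome (3.01%) and 2 tiles of the locus were found, and 1 of these 2 holds the window, which was chosen by these values. limma, fitted to the same tiles, gave 0 and 38806 tiles of the genome and again 0 and 2 of the locus. Of the unadjusted calls in the locus, 0 were left with tiles of 2000 nucleotides, that of the window included, and 1 with a looser filter on tiles, that of the window.

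The tile of the window, from 125128000 to 125128999, had a log2 odds ratio of -3.12, and 5 of its 6 CpGs are those of the window. The other tile, from 125126000 to 125126999, held 10 CpGs. Among them is 125126143, the largest decrease among the flanking CpGs without overlap, so this tile is not a finding separate from that CpG. Its iron-sufficient replicates had 34.5%, 49.6% and 53.8% and its iron-deficient replicates 18.5%, 13% and 26.8%, so the groups did not overlap. The log2 odds ratio in it was -1.86, with an adjusted p = 1 by edgeR and 0.956 by limma. With any replicate left out, 0 tiles of the locus other than that of the window had an unadjusted p-value under 0.05. The tiles with the next smallest p-values, from 125137000 and from 125139000, had differences of -20.1 and -18.9 percentage points with overlapping groups, and their adjusted p = 1 as well. In the opposite direction, the tile from 125136000 to 125136999 had 30.4%, 33.4% and 26% with iron sufficiency and 34.6%, 62.2% and 35.8% with iron deficiency. Its groups did not overlap either, with a difference of 14.3 percentage points and an adjusted p = 1 by edgeR. Tiles without overlap were not counted over the genome, so these separations are not read as a feature of the locus.

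Likeness of the other tiles of the locus to the window was measured as the mean absolute difference from the window over the 6 samples. Apart from the tile that holds the window, the closest tiles began at 125125000, 125137000 and 125139000 and differed from it by 16.6, 17.2 and 18.3 percentage points. In the first of these, iron-deficient replicate 2 had 58.3% and the other 5 samples between 78.3% and 85.7%. This replicate was also lowest in the second, at 56.6%, whereas in the third iron-deficient replicate 1 was lowest, at 33.7%. Likeness to the window chose these tiles, so a low value in the sample lowest in the window is partly built in.

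The expansion of the study opens a DMR at a CpG that meets the criteria and lets it pass up to 5 similar CpGs in a row. Rewritten here, with the default criteria and CpGs below the coverage minimum skipped, it gave a single DMR in the locus, from 125126143 to 125131417. This DMR had 14 CpGs, of which 6 met the criteria on their own. Its weighted difference was -34.5 percentage points. It thus held the window together with the decreases at 125126143 and 125131417, and CpGs between them that did not meet the criteria. Its limits were those of the window alone, with 5 CpGs and -48.2 percentage points, when a CpG below the coverage minimum ended the DMR, when at most 2 similar CpGs or at most 300 nucleotides between CpGs were allowed, and with a coverage minimum of 5. It held only part of the window when a replicate was left out in 3 cases, ending at 125128594 without iron-sufficient replicate 2 and at 125128564 without iron-deficient replicate 2 or 3. No DMR over the window was called without iron-sufficient replicate 3 or without iron-deficient replicate 1. With the default criteria and these CpGs skipped, the rewritten expansion thus did not return the limits of the window displayed in the study. The window was chosen by the study's own algorithm on these samples, so these calls are not independent of it.

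The flanks of Mobp were compared with those of the other windows that the study displayed, each with 20 kb on either side and the same 6 samples. The window named Chd2 in the study's text carries the name Cdh2 in its legend. Of the flanking CpGs of Mobp 7 of 116 (6.03%) met the single-CpG criteria in either direction, beside 3.21% of the genome. The share was 5.92% for Gucy2c and 3.7% for Pde6c, and between 0% and 3.45% for Chd2, Pck1, Usp36 and Tnni1. The difference of the group means over the flanks was -0.85 percentage points for Mobp, compared with 8.2 for Chd2, 7.83 for Pde6c and 6.31 for Gucy2c and between 0.0305 and 1.12 for the other 3. Differences between these windows were not tested.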

How the data were processed

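Whole-genome bisulfite sequencing of 3 iron-sufficient and 3 iron-deficient hippocampi was analysed. After adapter trimming, the authors mapped reads onto rn4 by BS Seeker version 1, used read 1 where reads of a pair overlapped, and merged both strands of a CpG. The files deposited by the authors give the methylated fraction and the coverage, a count of reads, per CpG, without normalization. Removal of duplicate reads and whether positions count from 0 or 1 are not given in the sources used here. Groups and replicate numbers came from the sample titles.

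Methylated counts were recovered as fraction times coverage, and all were whole to within 0.01. Tested CpGs had 10 or more reads in each of the 6 samples. Region shares were tested by exact two-sided permutation over samples, tiles by edgeR 4.0.16 (quasi-likelihood, sample effects, common dispersion, at least 5 CpGs covered in all samples and 50 reads per sample) and limma 3.58.1 in R 4.3.3, and the rest was written in Python 3.11.15 with scipy 1.17.1. The scripts were tested on simulated data. The pooled low-methylation stretches had been planned as another region test and were left out of the tests and the adjustment after their values were seen. The single-CpG criteria and expansion were written anew from the study's description, with an opposite call ending a DMR. The members, lists, tests and alternatives were chosen with earlier results of these data known. CpGs named in the text were those of the window, the 3 nearest tested on each side, the 3 largest decreases and increases without overlap in the flanks, and each low-methylation stretch. Named tiles were that of the window, the 3 others with the smallest p-values and the 3 most like the window. The untested CpGs near the window, the neighbours of 125126143, single CpGs inside the low-methylation stretches and the tile from 125136000 were chosen after their values were seen. Window positions, Mobp included, were read from printed figure axes of the study, where single digits can be misread. Both ends of the Mobp window are listed CpGs.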

Additional observations from a re-analysis of the deposited data

How the results depend on the processing

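The window difference kept its sign under all 12 alternatives, from -46 to -32.6 percentage points. This was partly fixed in advance, because the window was chosen by these values. Its groups do not overlap, so leaving out a replicate could not change the sign. A coverage minimum of 5, no minimum and the replicate block left the value unchanged at -41.3. The differences of the flank of lower coordinates, the flank of higher coordinates, and the flanks from 1 to 5 kb and from 5 to 20 kb kept their sign under all 13 alternatives each, and none could pass the threshold. From 1 to 5 kb, coverage minimums of 5 and 15 gave -8.47 and -12.2 percentage points (exact permutation test, unadjusted p = 0.1 each, the smallest possible). This region holds both ends of the wider DMR around the window, so it is not independent of the window's choice. The same p was reached in the flank of lower coordinates with unweighted means and in that of higher coordinates with a minimum of 20.

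Over both flanks the difference of -0.85 was 1.16 and 2.51 percentage points with coverage minimums of 5 and 20, and lay between -2.01 and 1.03 with each replicate left out. Within 1 kb it was 4.63 with a minimum of 5 and 1.8 with none, and between -18.2 and 5.32 with each replicate left out. In the low-methylation stretches, 2.19 became -4.03 with minimums of 15 and of 20, and lay between -2.8 and 9.39 with each replicate left out. The causes were not tested.

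The number of flanking CpGs that met the criteria, 7, was 2 with a coverage minimum of 20, 4 with unweighted means and 1 with a p-value threshold of 0.01. The number without overlap, 9, was 5 with a minimum of 20 and between 15 and 25 with each replicate left out, where fewer samples have to be separate. A DMR that overlapped the window was found in 9 of 11 alternatives, of which 3, each with a replicate left out, held only part of it, and the number was 0 to 1 with each replicate left out. The ratio of the mean window coverage, iron-deficient to iron-sufficient, was 1.14, and 0.654 (without iron-deficient replicate 2) to 1.5 with each replicate left out. In all 11 alternatives 0 tiles of the locus were called. With the replicate block, the flank from 1 to 5 kb differed by -9.38 percentage points (exact sign-flip test, p = 0.25, the smallest it can give) and 0 tiles of the locus were called. The tile from 125126000 then had no unadjusted p-value under 0.05. Deviations of same-numbered samples correlated at 0.00213 to 0.00489 over 894922 tiles. These values are small, and whether same-numbered samples were paired is not given in the labels and cannot be told from them. Every sample correlated best with its own number, and whether this exceeds chance was not tested. Deviations were taken from the group means, so these correlations depend on each other. Depth limits the locus to 121 of 567 CpGs.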
